A study of Rattus norvegicus with 24 samples.

Results

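The miR-23 and miR-27 paralogs were followed on 24 one-colour Agilent rat miR arrays of INS1 cells, a rat insulinoma line used as a model of the insulin-producing β-cell. The members were the miRs whose name on the array is miR-23a, miR-23b, miR-27a or miR-27b with a 3p or a 5p ending, which gave 8 arms, 4 of them 3p and 4 of them 5p, of the 758 miRs measured. The cells were left untreated (Ctrl), exposed to the cytokines IL-1β at 150 pg/ml with IFN-γ at 0.1 ng/ml (Cyt), given 125 nM Givinostat alone (Giv_Ctrl), or given Givinostat 1 h before the same cytokines (Giv_Cyt), each for 6 h or 24 h, with 3 arrays in each of the 8 groups. Givinostat is a broad inhibitor of lysine deacetylases, and the groups ask whether it alters the response of miRs to cytokines. The sources used here do not settle whether the 3 arrays of a group came from separate cultures, so the p-values measure the spread between arrays, which may be technical. All groups are of 1 cell line, and a change in RNA per cell cannot be told apart from a change in the make-up of the cells collected.

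A miR hairpin is cut into a 5p and a 3p strand, and the strand that is loaded into Argonaute and kept is called the guide, while the other, the passenger, is mostly lost. For miR-23 and miR-27 the 3p strand is the guide. Mammals carry these miRs in a pair of clusters, each read as one primary transcript that also holds miR-24: the a cluster with miR-23a, miR-27a and miR-24-2, and the b cluster with miR-23b, miR-27b and miR-24-1. Because paralogs share a seed, the short stretch that pairs with targets, they are predicted to act on largely the same mRNAs.

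The mature sequences of the 3p arms, from the RefSeq table of the GRCr8 build, are shown because the whole comparison of the a and b clusters rests on how little they differ. Capitals mark the seed, bases 2 to 8 from the 5′ end.
miR-23a-3p: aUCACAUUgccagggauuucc
miR-23b-3p: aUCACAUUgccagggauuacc
miR-27a-3p: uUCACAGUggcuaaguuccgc
miR-27b-3p: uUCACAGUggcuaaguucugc
The paralogs were identical at 20 of 21 bases in both families. The single difference lay at position 19, outside the seed, and was U19A from miR-23a to miR-23b and C19U from miR-27a to miR-27b, counted from 1 at the 5′ end. Of the 693 rat mature miRs in the table, 2 carried the miR-23 seed UCACAUU and 2 the miR-27 seed UCACAGU, in each case the paralogs themselves. The 5p arms of which the table holds a sequence did not share a seed with each other, and capitals mark it again.
miR-23b-5p: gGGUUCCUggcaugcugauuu
miR-27a-5p: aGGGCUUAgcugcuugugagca
miR-27b-5p: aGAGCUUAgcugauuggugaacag

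On rn4, the build of the probe positions in the scanner files, the longer probes of the b cluster were placed at chr17:7351749-7351765 (miR-23b-3p) and chr17:7351513-7351529 (miR-27b-3p). Those of the a cluster were placed at chr19:25638793-25638809 (miR-23a-3p) and chr19:25638638-25638653 (miR-27a-3p). The intervals, given as the files write them, are 1 base shorter than the probes. In the gene table of GRCr8 all 6 hairpins of both clusters are on the minus strand. The b hairpins lie inside the protein-coding gene Aopep, with Fancc also over Mir24-1, and no other gene overlaps those of the a cluster.

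The clusters differed in detection, which was read by different probes and so does not compare amounts of miR. The scanner marks spots whose signal is well above background, and an arm counted as detected on an array where 8 or more of its 16 spots were marked. The b-cluster guides rno-miR-23b-3p and rno-miR-27b-3p passed on 24 of 24 arrays, with 384 of 384 spots marked for each. Of the a cluster, rno-miR-23a-3p passed on 19 of 24 arrays with 175 of 384 spots marked, and no array had more than 9. Its neighbour rno-miR-27a-3p passed on 0 of 24 arrays, with 1 marked spot of 384. Thus 2 of the 4 guide arms, both of the b cluster, were above background on every array, as were 117 of the 758 miRs.

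**Figure D1:**
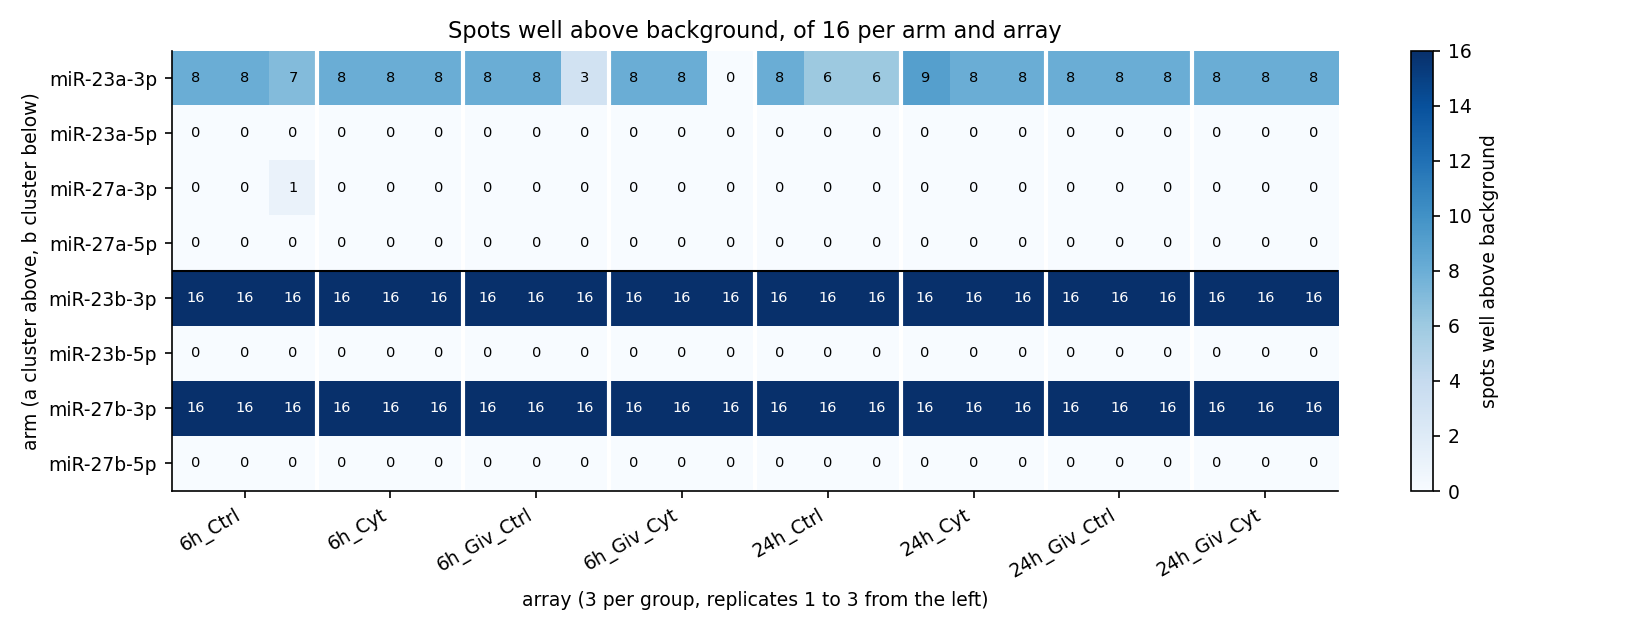
Spots well above background for each arm (rows) on each array (columns, 3 per group), of 16 spots. The b-cluster 3p arms have 16 marked spots on all arrays, miR-23a-3p has 0 to 9, and the 5p arms have none.

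None of the 4 passenger arms was above background on any array. miR-23a-5p, miR-23b-5p, miR-27a-5p and miR-27b-5p each had 0 marked spots of 384. Their median foreground intensity, on the scanner's linear scale, lay between 37.5 and 55.75 over all arrays, and on no array did one of them exceed the 95th percentile of that array's negative control spots. miR-27a-3p, at 45 to 60.5, was likewise below this percentile on all 24 arrays. The corresponding intensities were 857 to 3232 for miR-23b-3p, 343 to 1306 for miR-27b-3p and 56.5 to 90.25 for miR-23a-3p, which exceeded the percentile on 23 arrays. Over the array, 281 miRs had both arms, and 31 of them had the 3p arm above background on all arrays and the 5p arm on none. Both b-cluster miRs were among these 31.

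The marked spots of miR-23a-3p came almost wholly from 1 of its probes. Each 3p arm was read by a pair of probe sequences, 8 spots of each, the shorter lacking the last base of the longer. The probes of miR-23a-3p and the longer probe of miR-23b-3p are shown because their single differing base, in capitals, is all that separates the paralogs on the array.
miR-23a-3p, shorter: ggAaatccctggcaatg
miR-23a-3p, longer: ggAaatccctggcaatgt
miR-23b-3p, longer: ggTaatccctggcaatgt
The longer miR-23a-3p probe, of 18 bases, had 174 of 192 spots well above background. The shorter one, of 17 bases, had 1 of 192. Both probes of miR-23b-3p and both of miR-27b-3p had 192 of 192. The probes of miR-27a-3p have 16 and 17 bases and those of miR-27b-3p 17 and 18, so this pair differs in probe length too. Whether miR-23b-3p bound to the longer miR-23a-3p probe was not tested. The array level of miR-23a-3p had a Pearson correlation of 0.28 with that of miR-23b-3p over the 24 arrays. That level is a mean over both probes, so the correlation does not answer the question for the longer probe.

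**Figure D2:**
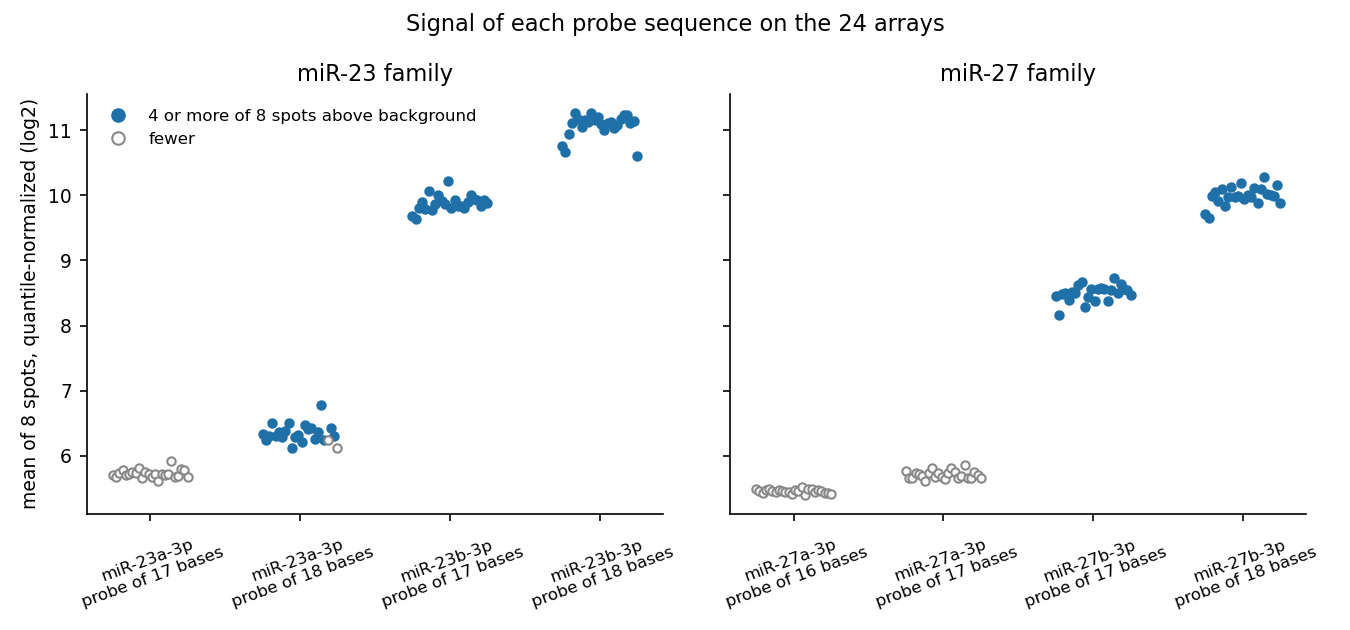
Mean log2 signal of the 8 spots of each probe sequence on each of the 24 arrays, with filled points where 4 or more spots were well above background. Both probes of the b-cluster arms are filled on all arrays. For miR-23a-3p only the probe of 18 bases is, on 22 arrays. Signals of different probes are not comparable as amounts of miR.

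Among the partners on the same transcripts, miR-24-3p, which both clusters encode, was above background on 24 of 24 arrays. The passenger arms miR-24-1-5p and miR-24-2-5p, which would tell the clusters apart, were above background on none. miR-128-3p, whose seed CACAGUG is that of miR-27 moved by 1 base, was above background on all 24. As a check of the cell type, 5 miRs known from β-cells and other epithelial cells were looked up, of which miR-375-3p, miR-7a-5p and miR-200c-3p were above background on all 24 arrays, miR-7b on 2 and miR-200a-3p on none. Of 8 miRs of liver, muscle and blood cells, miR-206-3p was above background on all 24 arrays and miR-1-3p on 3, while miR-122-5p, miR-133a-3p, miR-142-3p, miR-142-5p, miR-223-3p and miR-451-5p were on none.

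The arrays lay on 4 slides, each scanned once, and all 3 24h_Ctrl arrays were on slide 4 whereas the 24h_Cyt arrays were on slides 1 and 2. On slide 4 were also 1 24h_Giv_Ctrl, 2 24h_Giv_Cyt and 1 6h_Cyt array. Replicate 1 of 6h_Giv_Ctrl and replicate 3 of 6h_Giv_Cyt stood apart from their groups, with correlations to the other arrays of the group of 0.88 and 0.90 to 0.93 over the 117 detected miRs, where all other pairs within a group reached at least 0.957.

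The level of miR-23b-3p ranged from 10.15 to 10.71 (quantile-normalized log2 signal) over the 24 arrays. By group mean, from the highest, the order was 24h_Giv_Cyt at 10.60 ± 0.10 (SD, n = 3), 6h_Giv_Ctrl at 10.58 ± 0.0047, 24h_Cyt at 10.55 ± 0.062, 24h_Giv_Ctrl at 10.50 ± 0.077, 6h_Ctrl at 10.47 ± 0.0083, 6h_Cyt at 10.46 ± 0.037, 6h_Giv_Cyt at 10.42 ± 0.15 and 24h_Ctrl at 10.25 ± 0.11. The first 7 groups followed each other in steps of at most 0.054, less than the SD of 0.085 pooled over the groups. The last step, of 0.17 down to 24h_Ctrl, was larger than that SD. Of the 21 arrays outside 24h_Ctrl, 20 were above all 3 of its arrays.

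miR-27b-3p ranged from 8.91 to 9.50 on the same scale. The highest group was 6h_Giv_Ctrl at 9.36 ± 0.12 (SD, n = 3), and 24h_Ctrl was again the lowest, at 9.08 ± 0.16. The other 6 groups lay between 9.24 and 9.29, closer together than the pooled SD of 0.11. The last step, from 6h_Ctrl down to 24h_Ctrl, was 0.16. For miR-23a-3p the group means spanned 0.11, from 5.98 ± 0.077 in 24h_Giv_Cyt to 6.09 ± 0.23 in 6h_Giv_Ctrl, about the pooled SD of 0.11.

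**Figure D3:**
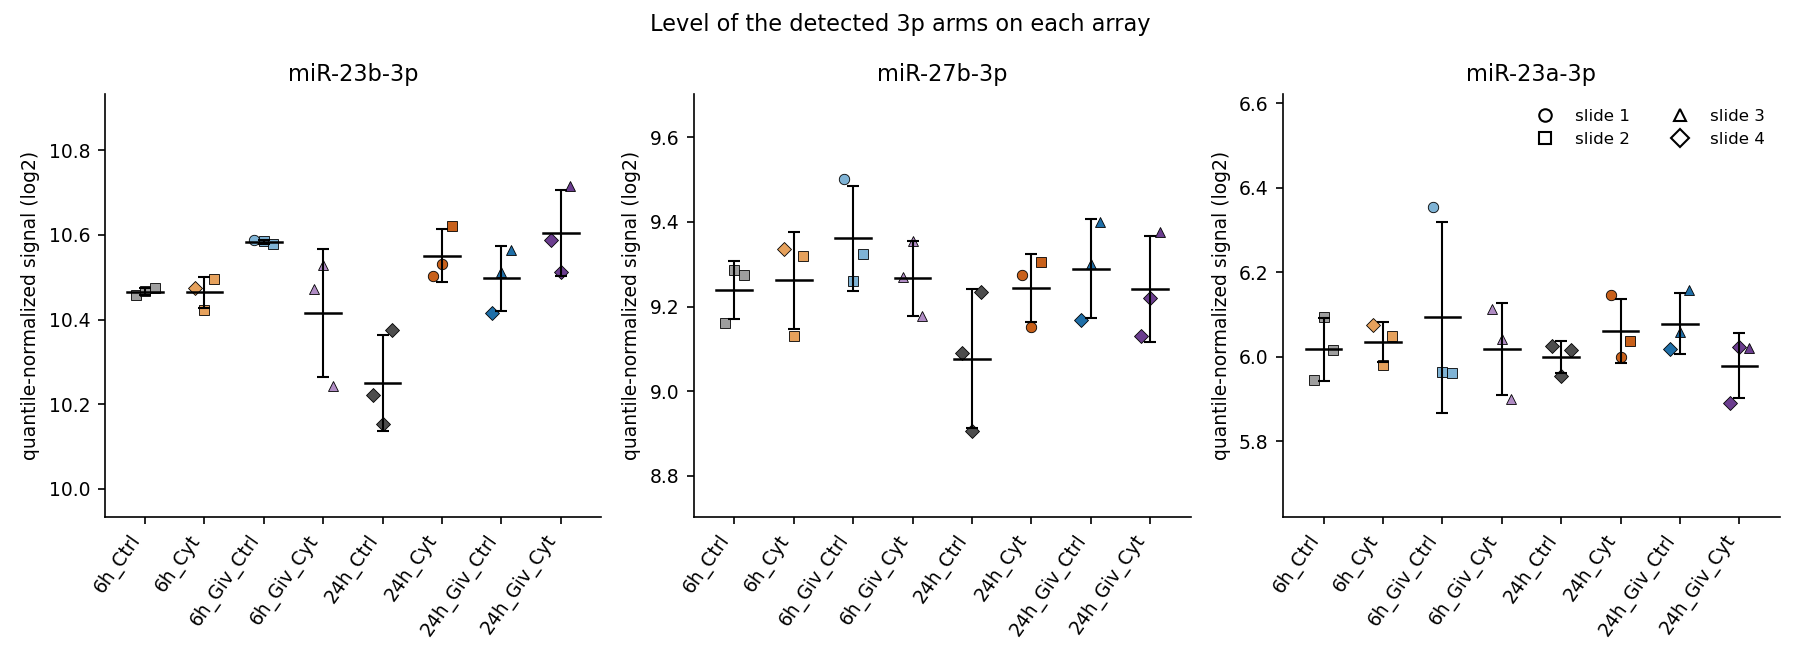
Quantile-normalized log2 signal of miR-23b-3p, miR-27b-3p and miR-23a-3p on each array, by group. Points are arrays, their shape gives the slide, lines are group means and bars the SD (n = 3). 24h_Ctrl is the lowest group of miR-23b-3p and miR-27b-3p. All panels span 1 log2 unit.

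Each arm was tested in 12 pairwise comparisons with limma, and called at an absolute log2FC above 0.1375 (1.1-fold) and a p below 0.05 after adjustment over the 758 miRs. Of the 96 tests of the 8 arms, 1 was called: miR-23b-3p was higher in 24h_Cyt than in 24h_Ctrl. On the 24h_Ctrl arrays it read 10.22, 10.15 and 10.37, and on the 24h_Cyt arrays 10.50, 10.53 and 10.62. All 3 arrays with cytokines lay above all 3 without. The log2FC was 0.30 (SE 0.066, 95% confidence interval 0.16 to 0.44, limma adjusted p = 0.0108), a 1.23-fold difference. In this comparison 4.09% of all miRs were called, 2.64% called and higher, and in 16.4% all arrays with cytokines were higher. Among the 117 miRs above background on all arrays, this last share was 24.8%. Both probes were higher with cytokines in the mean, by 0.21 for the shorter and 0.39 for the longer. The shorter probe alone overlapped, at 9.79 to 10.07 with cytokines and 9.64 to 9.81 without. Only the longer kept the groups apart.

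Several settings ended this call. The fit named in the study's methods, a pooled correlation over spots, gave the same log2FC of 0.30 with an adjusted p of 0.221. Leaving out replicate 2 of 24h_Ctrl, the lowest array, gave a log2FC of 0.25 with an adjusted p of 0.0667, and the scanner's processed signal, with arrays scaled on the 75th percentile over detected miRs, gave 0.088 with an adjusted p of 0.344. No slide holds both groups: with slide as a fixed block the log2FC was 0.35 (adjusted p = 0.374), and without slide 1 it was 0.37 (adjusted p = 0.172). With slide as a random block the call remained, at 0.29 (adjusted p = 0.0249). On slide 4 the 4 arrays of other groups, none of them 24h_Cyt, read 10.41 to 10.59, and the 3 24h_Ctrl arrays 10.15 to 10.37. For miR-27b-3p the same 4 arrays, at 9.13 to 9.34, overlapped the controls, at 8.91 to 9.23. An effect of the slide on the controls was not tested.

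miR-27b-3p, from the same cluster, did not pass in 24h_Cyt vs 24h_Ctrl. It read 9.09, 8.91 and 9.23 on the 24h_Ctrl arrays and 9.27, 9.15 and 9.30 on the 24h_Cyt arrays, so that the groups overlapped. The log2FC was 0.17 (SE 0.089, 95% confidence interval -0.021 to 0.35, adjusted p = 0.268). For miR-23a-3p it was 0.062 (95% confidence interval -0.11 to 0.24, adjusted p = 0.684). miR-24-3p, encoded by both clusters, read 10.28 to 10.53 without and 10.22 to 10.34 with cytokines, a log2FC of -0.12 (95% confidence interval -0.37 to 0.12, adjusted p = 0.555). The median log2FC of the 4 3p arms was 0.11, beside -0.011 over all 758 miRs and -0.055 over the 117 detected ones.

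Givinostat alone was compared with the same 24 h controls. miR-23b-3p read 10.41, 10.51 and 10.57 in 24h_Giv_Ctrl, all above the 24h_Ctrl arrays, with a log2FC of 0.25 (SE 0.066, unadjusted p = 0.0016, adjusted p = 0.405). All 3 arrays with Givinostat were higher in 4.75% of all miRs and in 5.98% of the 117 above background on all arrays. Of all miRs, 0.00% were called. For the shorter probe alone the groups overlapped, with 9.78 on the lowest 24h_Giv_Ctrl array and 9.81 on the highest 24h_Ctrl array. Within slide 4, the only slide with both groups, the single 24h_Giv_Ctrl array exceeded the mean of the 3 controls by 0.16. For miR-27b-3p the arrays read 9.17, 9.30 and 9.40, overlapping the controls, with a log2FC of 0.21 (SE 0.089, adjusted p = 0.992) and a difference of 0.090 within slide 4. With the processed signal and its scaling over detected miRs, miR-27b-3p was called in this comparison (log2FC 0.19, adjusted p = 0.0473). Both 24 h comparisons use the same 3 controls and are not independent of each other.

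When Givinostat was present, adding cytokines for 24 h gave no call for the arms, where 0.528% of all miRs were called. miR-23b-3p read 10.59, 10.51 and 10.71 in 24h_Giv_Cyt, overlapping the 24h_Giv_Ctrl arrays, with a log2FC of 0.11 (95% confidence interval -0.032 to 0.25, adjusted p = 0.503). The difference was 0.18 within slide 3 and 0.14 within slide 4. With the processed signal it was 0.00053 when scaled over detected miRs and -0.54 when scaled over all miRs, and without normalization it was 0.44, so its direction and size rest on the scaling. miR-27b-3p differed by -0.047 (95% confidence interval -0.24 to 0.14). Between 24h_Giv_Cyt and 24h_Cyt, the comparison of Givinostat in the presence of cytokines, miR-23b-3p differed by 0.053 (95% confidence interval -0.086 to 0.19) and miR-27b-3p by -0.0019 (95% confidence interval -0.19 to 0.19), with 0.132% of all miRs called. No slide holds both 24h_Giv_Cyt and 24h_Cyt arrays. The cytokine effect on miR-23b-3p with Givinostat minus that without was -0.19 at 24 h (adjusted p = 0.871).

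At 6 h no arm was called in the 4 comparisons, and limma called 0.00% of all miRs in each. At an unadjusted p below 0.05 there were 24 to 34 miRs per comparison, and with the pooled correlation over spots 0 to 21 were called, none of them a 3p arm. The 6h_Ctrl arrays read 10.46, 10.47 and 10.47 for miR-23b-3p and the 6h_Cyt arrays 10.48, 10.42 and 10.50, a log2FC of -0.0011 (95% confidence interval -0.14 to 0.14). For miR-27b-3p the log2FC was 0.022 (95% confidence interval -0.17 to 0.21). The cytokine effect at 24 h minus that at 6 h was 0.30 for miR-23b-3p (unadjusted p = 0.0049, adjusted p = 0.284) and 0.14 for miR-27b-3p (adjusted p = 0.794), where 0.528% of all miRs were called.

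The Givinostat groups at 6 h each hold 1 of the arrays that stood apart. miR-23b-3p read 10.59, 10.59 and 10.58 in 6h_Giv_Ctrl and 10.47, 10.53 and 10.24 in 6h_Giv_Cyt, the lowest being the array that stood apart. The log2FC of 6h_Giv_Cyt vs 6h_Giv_Ctrl was -0.17 (adjusted p = 0.998), and -0.081 (adjusted p = 0.623) without both arrays. It was 0.045 with the processed signal scaled over detected miRs. No slide holds both 6h_Giv_Cyt and 6h_Giv_Ctrl arrays. In this comparison the groups did not overlap in 5.01% of all miRs. In 6h_Giv_Ctrl vs 6h_Ctrl all 3 arrays with Givinostat were higher for miR-23b-3p, with a log2FC of 0.12 (adjusted p = 0.981), where 4.35% did not overlap. The difference was 0.12 within slide 2, and -0.076 and -0.10 with the processed signal scaled over detected and over all miRs, so its direction rests on the scaling. For the shorter probe alone these groups overlapped, at 9.926 to 10.003 with Givinostat and 9.812 to 9.929 without.

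Between the times, miR-23b-3p was lower in 24h_Ctrl than in 6h_Ctrl on all arrays, with a log2FC of -0.22 (unadjusted p = 0.0046, adjusted p = 0.822), where 0.00% of miRs were called and 8.58% did not overlap. No slide holds both of these groups, nor both 24h_Giv_Ctrl and 6h_Giv_Ctrl. With Givinostat alone it was also lower on all arrays, by a log2FC of -0.087 (adjusted p = 1.00), where 0.00% were called and 5.80% did not overlap. With cytokines the sign was the other way, 0.087 in 24h_Cyt vs 6h_Cyt (adjusted p = 0.675), where 21.8% did not overlap, and 0.19 in 24h_Giv_Cyt vs 6h_Giv_Cyt (adjusted p = 0.302). Within slide 2 the first was 0.16, and within slide 3 the second was 0.30. Of all miRs, 0.792% and 0.396% were called in these comparisons. Neither miR-23b-3p probe alone kept the 24h_Cyt and 6h_Cyt arrays apart. For Givinostat alone the times overlapped in the shorter probe. With the processed signal scaled over all miRs, 24h_Cyt vs 6h_Cyt gave -0.015, 24h_Giv_Cyt vs 6h_Giv_Cyt -0.18 and 24h_Giv_Ctrl vs 6h_Giv_Ctrl 0.23, so these directions too rest on the scaling.

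**Figure D4:**
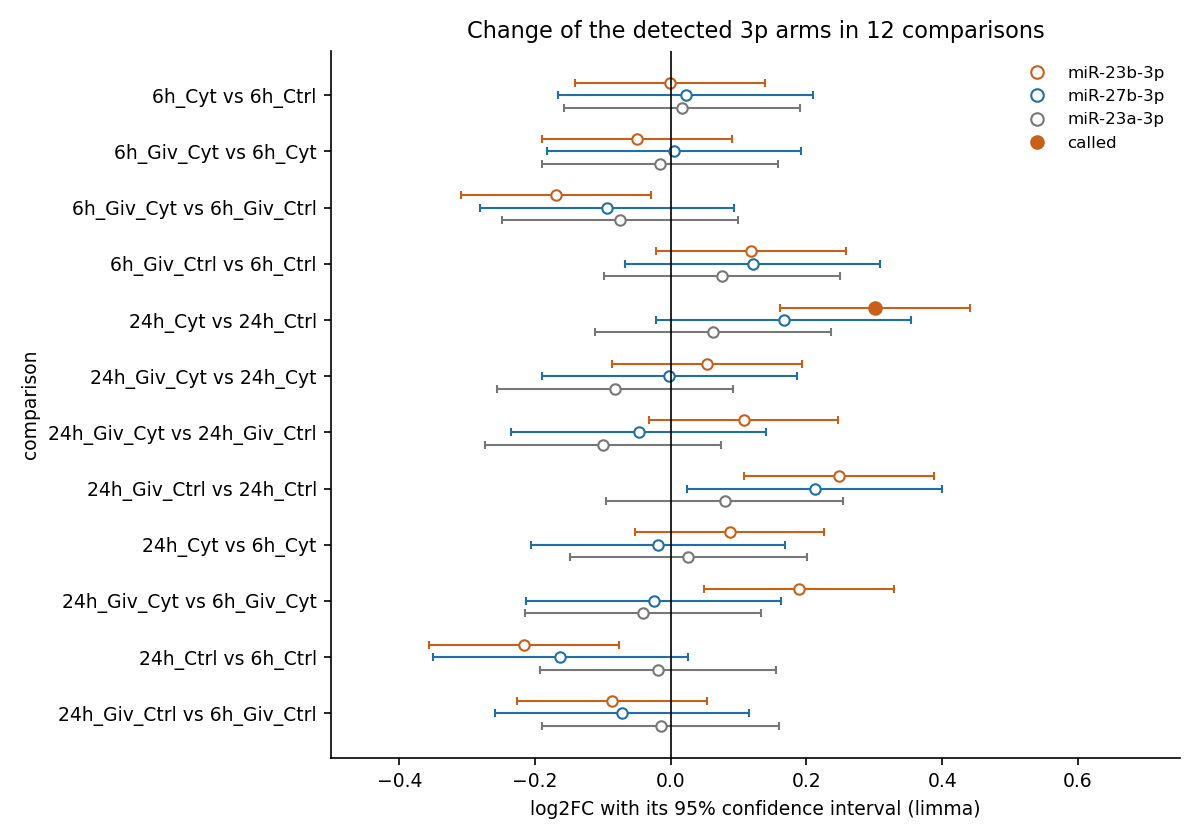
log2FC of miR-23b-3p, miR-27b-3p and miR-23a-3p (horizontal axis) with 95% confidence intervals from limma, in the 12 comparisons (vertical axis). The filled point, miR-23b-3p in 24h_Cyt vs 24h_Ctrl at 0.30, is the single call.

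Averaged over the other factors, no 3p arm was called. For miR-23b-3p the averaged change was 0.060 with cytokines (adjusted p = 0.299), 0.093 with Givinostat (unadjusted p = 0.0124, adjusted p = 0.830) and -0.0066 from 6 h to 24 h (adjusted p = 0.949). For miR-27b-3p it was 0.012, 0.084 and -0.070. Of all miRs, 1.32%, 0.00% and 0.264% were called in these averaged contrasts.

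The a and b paralogs were compared by their changes and not by their levels, since different probes bind with different strength. The difference of the paralogs on each array was tested by exact two-sided permutation of the arrays within the other factors, which has 160000 arrangements, with p adjusted over 6 tests. The change of miR-23a-3p minus that of miR-23b-3p was -0.084 with cytokines (exact permutation p = 0.131, adjusted p = 0.196), -0.079 with Givinostat (exact permutation p = 0.102, adjusted p = 0.196) and -0.0054 from 6 h to 24 h (exact permutation p = 0.925). For miR-27a-3p minus miR-27b-3p the values were -0.028 (exact permutation p = 0.524), -0.096 (exact permutation p = 0.0398, adjusted p = 0.196) and 0.066 (exact permutation p = 0.122). None passed after adjustment. miR-27a-3p was at background throughout, so its share of these differences is not that of a detected miR. miR-23a-3p was near background, with 175 of 384 spots marked, so the miR-23 differences do not compare a pair of well-detected miRs either. With cytokines the averaged changes were -0.024 for miR-23a-3p and 0.060 for miR-23b-3p. With Givinostat they were 0.014 and 0.093, and from 6 h to 24 h -0.012 and -0.0066. How far the miR-23 differences only carry the change of miR-23b-3p was not tested beyond these values.

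In single comparisons, 3 arrays against 3 cannot give an exact permutation p below 0.10. In 24h_Cyt vs 24h_Ctrl the change of miR-23a-3p minus that of miR-23b-3p was -0.24 (exact permutation p = 0.20), and for the miR-27 pair it was -0.15 (exact permutation p = 0.30). The smallest possible p was reached by the miR-23 pair in 24h_Giv_Cyt vs 24h_Giv_Ctrl (-0.21), 24h_Giv_Ctrl vs 24h_Ctrl (-0.17), 24h_Giv_Cyt vs 6h_Giv_Cyt (-0.23) and 24h_Ctrl vs 6h_Ctrl (0.20), and by the miR-27 pair in 6h_Giv_Ctrl vs 6h_Ctrl (-0.13).

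Across the 24 arrays the levels of the b-cluster guides were correlated. The Pearson correlation of miR-23b-3p with miR-27b-3p was 0.72 (permutation p = 4e-05, adjusted over 5 relations 2e-04) and Spearman's rho was 0.60 (permutation p = 0.0025, adjusted p = 0.0057). Without the 2 arrays farthest from the median of miR-23b-3p, replicates 1 and 2 of 24h_Ctrl, r was 0.50 (permutation p = 0.0193). After the group means were removed it was 0.72, and it was 0.64, 0.89 and 0.68 within slides 2, 3 and 4 (8, 6 and 7 arrays). The 3 arrays of slide 1 were too few. For all correlations the permutations shuffled the arrays freely across groups and slides. Their p-values therefore take no account of either, and none was computed with group means removed or within slides. Each b-cluster guide had a higher r with other miRs, up to 0.88 for miR-23b-3p (with miR-30b-5p) and 0.90 for miR-27b-3p (with miR-129-2-3p). The correlation is thus not particular to the pair.

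miR-27b-3p and miR-24-3p had r = 0.58 and rho = 0.58 (permutation p = 0.0024 and 0.0034, adjusted p = 0.0040 and 0.0057), and r was 0.55 without the 2 farthest arrays, 0.85 after the group means were removed and 0.74, 0.59 and 0.34 within slides 2, 3 and 4. For miR-23b-3p and miR-24-3p, r was 0.079 and rho 0.019 (permutation p = 0.717 and 0.929), r was 0.58 after the group means were removed, and within slides 2, 3 and 4 it was 0.035, 0.58 and -0.38. Whether these 2 relations differ was not tested. miR-23a-3p, of the other cluster, had r = 0.67 and rho = 0.65 with miR-27b-3p (permutation p = 8.5e-04 for both, adjusted p = 0.0021 and 0.0042), with 0.57 without the 2 farthest arrays and 0.49, 0.68 and 0.59 within slides 2, 3 and 4. With miR-23b-3p it had r = 0.28 and rho = 0.21 (permutation p = 0.176 and 0.327).

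**Figure D5:**
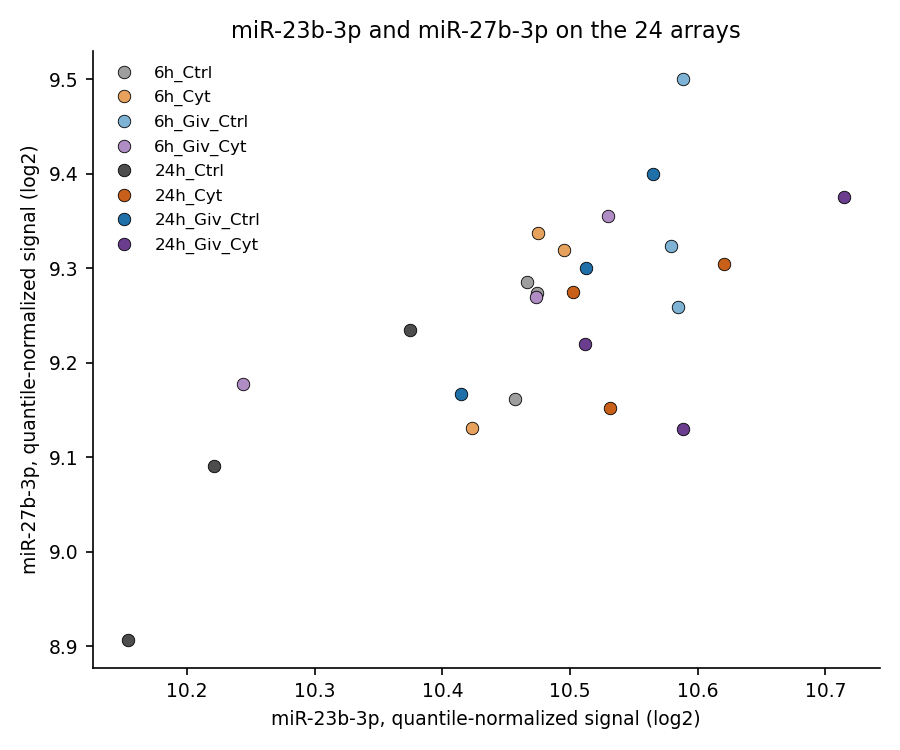
miR-23b-3p (horizontal) against miR-27b-3p (vertical), quantile-normalized log2 signal on the 24 arrays coloured by group. The points rise together (r = 0.72), with 2 of the 24h_Ctrl arrays at the lower left.

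The miRs most like each member were sought among the 115 others above background on all arrays, by Pearson's r over the 24 arrays, as a description only since all arrays share one normalization. For miR-23b-3p they were miR-30b-5p (r = 0.88), miR-22-3p (r = 0.86) and miR-30c-5p (r = 0.81), and for miR-27b-3p they were miR-129-2-3p (r = 0.90), miR-26a-5p (r = 0.86) and miR-30b-5p (r = 0.86). For miR-23a-3p they were miR-195-5p (r = 0.93), miR-497-5p (r = 0.88) and miR-129-1-3p (r = 0.87). For miR-27a-3p, at background, they were miR-195-5p (r = 0.72), miR-497-5p (r = 0.71) and miR-25-3p (r = 0.68). miR-24-3p of the same clusters ranked 41 for miR-23b-3p, 24 for miR-27b-3p and 21 for miR-23a-3p.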

How the data were processed

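For every array the authors deposited the output of Agilent Feature Extraction (version 10.7.3.1 per the file headers and 9.1 per the submitters' processing notes), which holds each spot's intensity on a linear scale, and for the series a log2 table with 1 value per miR and array. Set against the scanner files, the deposited log2 values were the median of a miR's 16 spots after quantile normalization.

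Here the uncorrected median foreground intensity of each spot was used. The 434 negative and 281 positive control spots were left out, arrays were quantile-normalized, log2 was taken and the 16 spots of a miR were averaged. limma 3.58.1 in R 4.3.3 (lmFit, eBayes) was fitted to all 24 arrays with a mean per group and 16 residual degrees of freedom, and p-values were adjusted within each comparison (Benjamini-Hochberg, 758 miRs). The methods' own fit, a pooled correlation over spots, was an alternative because the spots of an array share their RNA. The fit was tested on simulated data. Permutation tests used Python 3.11.15, with 100000 permutations for correlations, and figures matplotlib 3.10.9. The number of arrays limits the precision.

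All 8 arms were named, with miR-24-3p, miR-24-1-5p, miR-24-2-5p, miR-128-3p and, for each 3p arm, the 3 miRs with the highest r. The members and lists were chosen with earlier results of these data known. The alternatives of the closing section covered the summary of spots, signal, background, scaling, filter, slide, replicate number, threshold and each array left out. The qRT-PCR and other experiments were not analysed here.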

Additional observations from a re-analysis of the deposited data

Results flagged for a closer look

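Results of miR-23b-3p in which all arrays moved one way in one setting and all arrays the opposite way in another were singled out. With cytokines, all arrays were lower in 6h_Giv_Cyt vs 6h_Giv_Ctrl (log2FC -0.17) and all were higher in 24h_Cyt vs 24h_Ctrl (0.30). The difference between these effects was not tested. From 6 h to 24 h, all arrays were higher with cytokines alone (0.087, 24h_Cyt vs 6h_Cyt) and all were lower in the untreated cells (-0.22, 24h_Ctrl vs 6h_Ctrl), and limma's interaction term for this difference was 0.30 (adjusted p = 0.284). All arrays were also lower over time with Givinostat alone (-0.087, 24h_Giv_Ctrl vs 6h_Giv_Ctrl), and the difference from 0.087 with cytokines alone was not tested. These separations are of the mean over both probes. For 24h_Cyt and 6h_Cyt, neither probe alone separated the arrays. The longer read 11.109 to 11.271 at 24 h and 11.037 to 11.119 at 6 h. The shorter read 9.791 to 10.067 and 9.810 to 9.903. The shorter probe also overlapped for Givinostat alone over time and for cytokines alone at 24 h. In the untreated cells over time, and for cytokines with Givinostat at 6 h, each probe kept the arrays apart. The groups share arrays between these contrasts. Among them only 24h_Cyt vs 6h_Cyt has arrays of both groups on a shared slide, so in the others treatment or time cannot be told apart from slide. With the processed signal the sign turned in 6h_Giv_Cyt vs 6h_Giv_Ctrl (0.045, scaled over detected miRs), 24h_Cyt vs 6h_Cyt (-0.015, scaled over all miRs) and 24h_Giv_Ctrl vs 6h_Giv_Ctrl (0.23, scaled over all miRs). Groups of 3 arrays are too small for a test of single outlying arrays.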

How the results depend on the processing

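The direction of miR-23b-3p in 24h_Cyt vs 24h_Ctrl was positive under all 18 alternatives and with each of the 24 arrays left out, with a log2FC of 0.019 to 1.30 among the alternatives. The number of 3p arms called there, 1 as reported, fell to 0 with the pooled correlation over spots (adjusted p = 0.221), the processed signal with arrays scaled on the 75th percentile over detected (log2FC 0.088) or over all miRs (log2FC 0.019, adjusted p = 1), slide as a fixed block and without slide 1. It rose to 3 (miR-23a-3p, miR-23b-3p and miR-27b-3p) without normalization between arrays, where the median of the detected miRs was 0.83 and miR-23b-3p lay 0.47 above it. This median was -0.055 as reported, -0.11 with the detected and -0.18 with the all-miR scaling. Leaving out each array in turn gave 0 to 1 calls and a log2FC of 0.25 to 0.36 (adjusted p 0.0022 to 0.0667). Without normalization 3 arms were also called in 24h_Cyt vs 6h_Cyt and in the averaged cytokine contrast, and 1 in 24h_Giv_Cyt vs 24h_Giv_Ctrl and in the cytokine effect at 24 h minus at 6 h. Called there with the opposite sign were miR-23a-3p in 24h_Giv_Cyt vs 24h_Giv_Ctrl (0.22) and in the averaged cytokine contrast (0.15), and miR-27b-3p in 24h_Cyt vs 6h_Cyt (0.80). Of the 53 results of miR-23a-3p, miR-23b-3p and miR-27b-3p that were not called as reported, the sign turned in 13 without normalization, in 13 with slide as a fixed block, and in 13 and 15 with the processed signal scaled over detected and over all miRs, so no direction is read from them. The detected-miR scaling gave 1 call in 24h_Giv_Ctrl vs 24h_Ctrl. Without normalization the paralog differences moved to -0.27 (miR-23, cytokines), 0.025 (miR-23, Givinostat), -0.33 (miR-27, cytokines) and -0.13 (miR-27, time), none past the threshold. The causes were not tested. With the replicate number as a block, miR-23b-3p kept its log2FC of 0.30 (adjusted p = 0.0175) and the number of 3p arms called in 24h_Cyt vs 24h_Ctrl stayed 1. Correlations of the deviations of same-numbered arrays from their group means ran from -0.94 to 0.97, with medians of -0.56, -0.45 and 0.21 for replicates 1, 2 and 3. As not every pair deviated together, the number was not taken to pair the arrays. Log2 before normalization and removal of both arrays that stood apart were chosen after seeing the data. Spots near the scanner's background limit what can be said of miR-27a-3p, the 5p arms and, in part, miR-23a-3p.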
